A study of Mus musculus with 106 samples.

Results

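Genes of iron handling are described here across 11 mouse tissues and 3 housing temperatures. There are 10 of them among the 25872 gene names of the 4 deposited count tables, and they were taken by symbol: the hepcidin genes Hamp and Hamp2, the bone morphogenetic protein gene Bmp6, the transferrin receptor genes Tfr2 and Tfrc, the transferrin gene Trf, the importer gene Slc11a2, the ferritin heavy chain gene Fth1, the exporter gene Slc40a1 and the ceruloplasmin gene Cp. All 10 genes have a row in every table.

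Iron travels in blood bound to transferrin, and cells take it up when transferrin binds its receptor, the product of Tfrc, on the cell surface. Inside the cell DMT1, the product of Slc11a2, carries the iron out of the endosome, ferritin stores what is not used, and ferroportin, the product of Slc40a1, is the exporter, helped by ferroxidases such as ceruloplasmin. Hepcidin is a peptide hormone made by hepatocytes that blocks ferroportin, and its gene is driven by BMP6 from liver endothelium, by transferrin receptor 2 on hepatocytes and by inflammatory signals. Iron regulatory proteins bind a stem-loop, the iron-responsive element, in the untranslated regions of several of these messengers: binding stabilises the Tfrc messenger and blocks translation of ferritin and ferroportin. Brown fat, red cell precursors and muscle are rich in haem and iron-sulphur enzymes, and the macrophages of the spleen return the iron of old red cells to blood.

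The libraries are bulk RNA sequencing of tissues from wild type male C57BL/6 or C57BL/6J mice, with an age of 11 or 12 weeks in the labels. Mice were kept at 34 °C for 4 weeks, or at 10 °C after a stepwise decrease of the temperature. Per the study's methods the stay at 10 °C was shorter than that at 34 °C. Each set had its own controls at 22 °C. All groups share the genotype, and the labels name no agent. The 106 libraries form 31 groups and give 16 comparisons: interscapular brown fat (iBAT), inguinal subcutaneous fat (ingSAT), perigonadal visceral fat (pgVAT), liver, ileum, spleen, bone marrow, quadriceps, brain, hypothalamus and spinal cord at 10 °C, and iBAT, liver, ileum, quadriceps and brain at 34 °C. Per the study's methods most libraries pool RNA of a pair of mice, and bone marrow and spinal cord libraries are single mice. The study's sample list gives single mice for the iBAT controls of the 34 °C experiment, and single mice and a pool for iBAT at 34 °C. The mice of both experiments came from different suppliers, and the 34 °C tissues, quadriceps, bone marrow and spinal cord were sequenced at another site and, per the labels, with another kit, so levels are compared within a table only. Groups hold 3 libraries, except 5 in spinal cord, 6 in bone marrow and 6 for the quadriceps controls, whose labels do not say to which experiment each belongs. Both quadriceps comparisons therefore share these controls, and values with each experiment's own 3 controls, found from the column names and group means, are given beside them.

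The libraries hold between 4262403 and 62880248 counts, and the 3 markers of each labelled tissue were above 0 in every library of it. A few libraries stood apart. In brain at 22 °C, replicate 2 had a summed level of 6 hepatocyte genes of 63000 CPM (counts scaled to a common library total) against 789 and 1180 in the other two, with Alb at 37900 against 1.57 and 2.88 CPM. In pgVAT at 10 °C, 6 epididymis genes summed to 22200 and 22300 CPM in replicates 1 and 3 against 2.46 in replicate 2 and 740 to 2650 at 22 °C. Values without these libraries are given beside the results that rest on them. Because tissues were ground whole, fewer cells of a type and less RNA per cell cannot be told apart.

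The iron-responsive elements are shown because they are what sets Tfrc apart from the ferritin and ferroportin genes. They were read from mm10 (GRCm38) and the GENCODE annotation by a search for the loop CAGTGN, in which N is A, C or T. The loop had to be closed by 5 base pairs, an unpaired C and at least 4 of 6 further pairs, in which G may pair with T. Capitals mark the 6 letters of the loop and each site is 29 bases, 5′ to 3′. The search found a site in an untranslated region of 18 of 21877 protein-coding genes (0.0823%), among them 3 of the 10 members and Ftl1, the ferritin light chain gene. The pattern is strict, so a gene without a match, such as Slc11a2, may still carry an element that departs from it. Tfrc (chromosome 16, + strand) carries 4 sites in its 3′ UTR, and Fth1 (chromosome 19, + strand), Slc40a1 (chromosome 1, − strand) and Ftl1 (chromosome 7, − strand) carry 1 each in the 5′ UTR.
Tfrc, chr16:32631219-32631247: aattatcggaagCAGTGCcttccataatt
Tfrc, chr16:32631598-32631626: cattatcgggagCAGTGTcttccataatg
Tfrc, chr16:32631663-32631691: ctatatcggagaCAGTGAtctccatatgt
Tfrc, chr16:32631710-32631738: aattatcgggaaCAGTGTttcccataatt
Fth1, chr19:9982732-9982760: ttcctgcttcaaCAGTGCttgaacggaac
Slc40a1, chr1:45925465-45925493: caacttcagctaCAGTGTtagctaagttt
Ftl1, chr7:45459779-45459807: gtcttgcttcaaCAGTGTttgaacggaac

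Hamp (chr7:30942368-30944032, − strand) and Hamp2 (chr7:30922372-30924681, − strand) are neighbours and near copies. Their transcripts are identical at 92.6% of aligned positions, and 60 of the 361 stretches of 50 bases in Hamp also occur in Hamp2 (16.6%), so reads from those stretches cannot be assigned and the split of counts between both genes is uncertain. The 250 bases before each start, from the RefSeq annotation of GRCm38.p6, are identical at 89.7% of aligned positions and are shown because the data below separate both genes. Capitals mark matches, on either strand, to the letters GGCGCC, found in BMP-responsive elements, and TTCNNNGAA, the core bound by STAT factors. The Hamp promoter holds both, at −109 to −104 and at −97 to −89. The Hamp2 promoter holds TTCTTGGAA at −94 to −86 and no GGCGCC. Of 32851 promoters of this kind, 9.59% hold GGCGCC and 7.02% hold TTCNNNGAA.
Hamp, chr7:30944030-30944279: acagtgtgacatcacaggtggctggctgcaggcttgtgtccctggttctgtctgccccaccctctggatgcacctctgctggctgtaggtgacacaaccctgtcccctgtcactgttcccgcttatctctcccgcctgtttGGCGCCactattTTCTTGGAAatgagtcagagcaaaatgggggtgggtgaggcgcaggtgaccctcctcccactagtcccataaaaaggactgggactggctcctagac
Hamp2, chr7:30924182-30924431: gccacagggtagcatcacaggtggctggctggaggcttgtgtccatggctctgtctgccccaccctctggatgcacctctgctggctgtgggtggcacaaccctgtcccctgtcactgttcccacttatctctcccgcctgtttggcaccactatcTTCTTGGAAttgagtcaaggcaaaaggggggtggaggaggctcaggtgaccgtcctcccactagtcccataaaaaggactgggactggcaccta

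At 22 °C each gene had its own order of tissues, and for most members the liver or the spleen stood clear of the rest. Without brain 22 °C replicate 2, Trf averaged 38100 CPM in liver and 4010 CPM in the next tissue, ingSAT (adjusted p = 1.95e-10 for this step, edgeR's quasi-likelihood test). Tfr2, which in hepatocytes senses loaded transferrin, averaged 827 CPM in liver, 27.2 in spleen and 9.30 in iBAT, and both steps differed (adjusted p = 3.92e-10 and 0.000619). Cp averaged 2670 CPM in liver and 296 in ingSAT, which also differed (adjusted p = 1.03e-08). Hamp averaged 207 CPM in liver and at most 0.132 CPM elsewhere. Hamp2 averaged 2.43 CPM in liver, where it was highest.

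The exporter and the uptake receptor were highest outside the liver. Slc40a1 averaged 746 CPM in spleen, 282 in liver, 87.2 in ileum, 51.2 in iBAT and 30.8 in ingSAT, and each of these steps differed (adjusted p from 4.36e-07 to 0.00526). Tfrc averaged 577 CPM in spleen, 392 in iBAT and 332 in ileum, which did not differ beyond their spread (adjusted p = 0.11 and 0.488), and then 163 in brain, below ileum (adjusted p = 0.0132). From brain down to pgVAT no neighbours of Tfrc differed. With brain 22 °C replicate 2 kept, Tfrc did differ between spleen and iBAT (adjusted p = 0.0473) and between hypothalamus and liver (adjusted p = 0.0378). Bmp6 was highest in iBAT, at 22.4 CPM against 11.4 in ingSAT (adjusted p = 0.023), and lowest in ileum. Fth1 spanned only 326 to 1190 CPM, with liver, iBAT, pgVAT, brain and ingSAT not differing step by step. Slc11a2 ran from 105 CPM in liver to 32.1 in pgVAT. Over the 9 members that could be ordered, 25 of 63 steps between neighbours differed, against 69.3% of all gene and tissue pair tests, which are not limited to neighbours. With brain 22 °C replicate 2 kept, 15 of 63 steps differed, against 65.8% of all pair tests. Brain then stood next after liver for Hamp, Tfr2, Trf and Cp, and neither the step of Bmp6 from iBAT to ingSAT nor any step of Slc40a1 below that from spleen to liver differed. Order and test come from the same libraries.

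**Figure D1:**
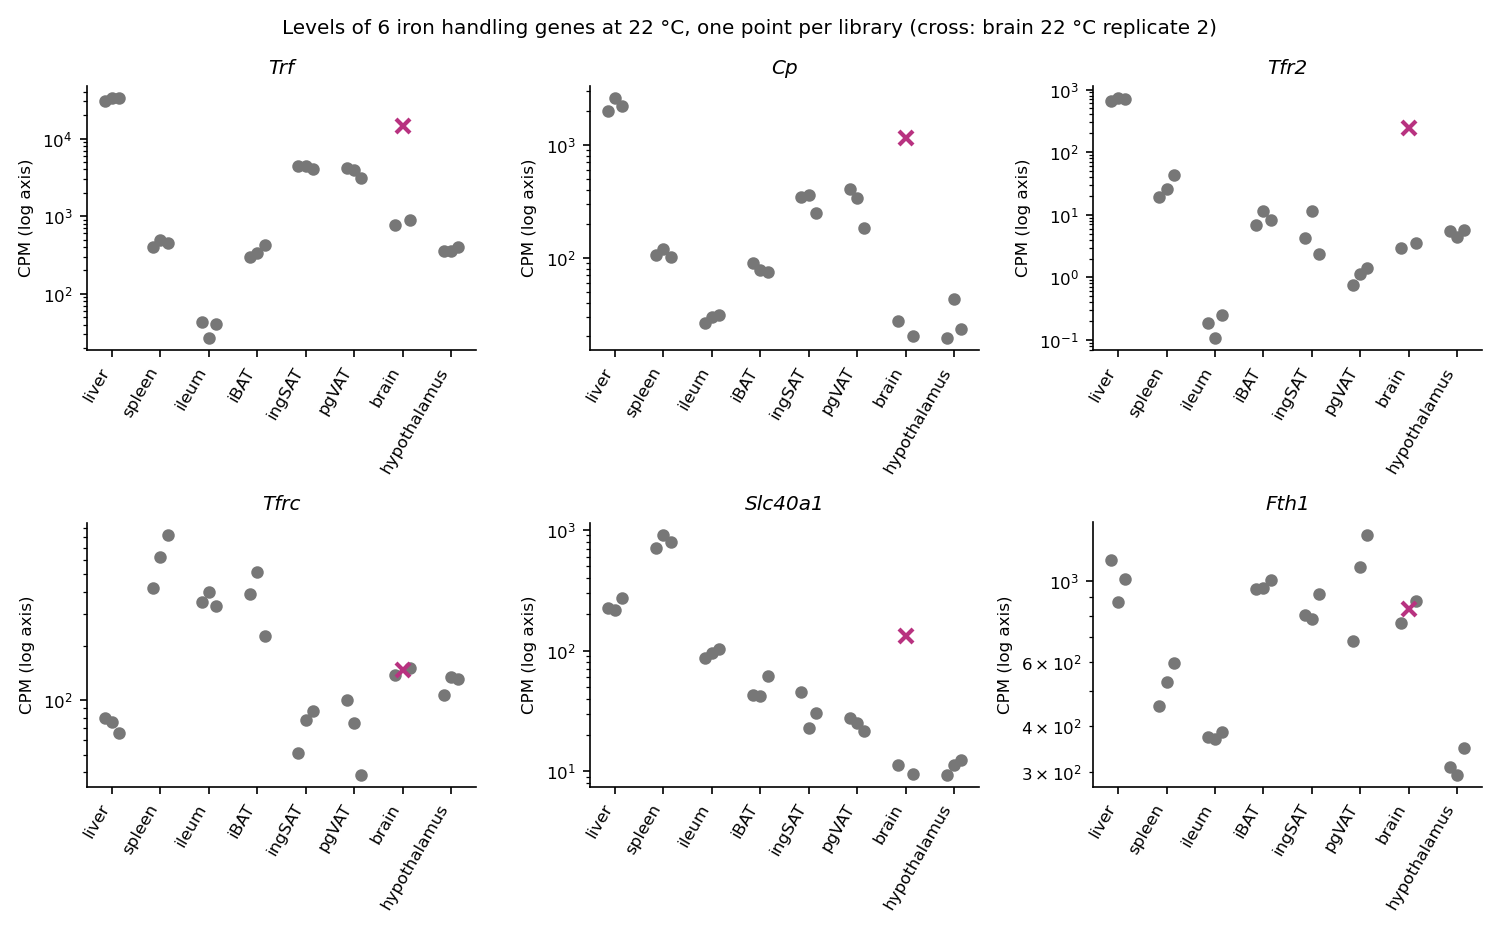
CPM on log axes (vertical) by tissue (horizontal) for Trf, Cp, Tfr2, Tfrc, Slc40a1 and Fth1 at 22 °C, 1 point per library, scaled over all 22 °C libraries of the 8-tissue table. The cross is brain 22 °C replicate 2, which lies far above the other brain libraries for Trf, Cp, Tfr2 and Slc40a1 and among them for Tfrc and Fth1.

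In the tables that hold the other tissues, bone marrow had a mean Tfrc level of 1380 ± 128 CPM (SD, n = 6), and spinal cord averaged 2340 ± 175 CPM of Trf (SD, n = 5), a gene that oligodendrocytes express. Divided by the length of all annotated exons together, Trf in liver reached 9680 CPM per kb, Hamp 426, Fth1 291, Cp 235 and Tfr2 161. Ftl1 reached 797. The transferrin messenger was the most abundant of these in liver on the per-length scale. These values are from the 22 °C livers of the cold experiment. They keep brain 22 °C replicate 2 in the scaling, with liver means of 32100 CPM for Trf and 175 for Hamp. In the 22 °C livers of the warm experiment, scaled separately, Trf reached 7550 CPM per kb, Ftl1 3820, Hamp 1950, Fth1 521, Tfr2 165 and Cp 150. Trf was again highest there, but less far above Ftl1 and Hamp. The order below Trf depends on the length chosen and is not interpreted. All exons of Fth1 span 3469 bases and those of Cp 9566, against 929 and 4564 bases for a single transcript. Hamp has 410 bases by either length. Most of Trf (79.8% of its stretches of 50 bases) is shared with the overlapping gene Gm20425, which has no row in the tables, so the Trf values may be partial. The genes whose mean levels at 22 °C followed a member most closely over 8 tissues, by Pearson correlation of mean log2 CPM with brain replicate 2 left out, were Apoe, Pid1 and Slc6a13 for Trf (r = 0.975, 0.952 and 0.941), Wfdc21, Slc25a30 and Col18a1 for Cp (0.989, 0.978 and 0.970), M6pr, Rdh10 and Polr3b for Slc40a1 (0.992, 0.989 and 0.978) and Trnt1, Smap1 and U2surp for Tfrc (0.983, 0.982 and 0.948). For Tfr2 they were Abcb4, Mtss1 and Acmsd (0.977, 0.977 and 0.962), for Fth1 Rps19bp1, Ube2g2 and Mbd3 (0.972, 0.953 and 0.941), for Bmp6 Acyp1, Pdrg1 and Use1 (0.979, 0.946 and 0.942), and for Slc11a2 Tent4b, Abraxas2 and Pigo (0.974, 0.933 and 0.929). The correlations share libraries and depth and come from 8 points picked among 15336 genes. Ugt1a9, Cyp2d40 and Ugt3a1 for Hamp (all 1) and Ido2, Serpind1 and Slc22a7 for Hamp2 (0.997, 0.995 and 0.993) reflect little more than that liver is the one high point.

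The first question was how the members changed in the cold. A gene was called when its unadjusted p was at most 0.05 and its fold change above 1.5, the study's limits, and adjusted p values are Benjamini-Hochberg over all genes of the comparison. Over 11 tissues at 10 °C, 12 of 88 gene tests were called, 6 higher and 6 lower (13.6%, against 4.95% of all gene tests). At 34 °C, 3 of 40 were called, 1 higher and 2 lower (7.5%, against 5.34%). Without brain 22 °C replicate 2 and pgVAT 10 °C replicates 1 and 3 there were 9 calls at 10 °C, 6 higher and 3 lower. These are again of 88 gene tests, but the share of all genes over the same libraries is not given, and 4.95% is no background for them. In brain at 10 °C that share was 2.73% with and 0.801% without 22 °C replicate 2. Only a few calls also had an adjusted p under 0.05: Tfrc and Tfr2 in iBAT and Tfrc in ingSAT at 10 °C, and Tfr2 in iBAT and Hamp2 in liver at 34 °C.

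**Figure D2:**
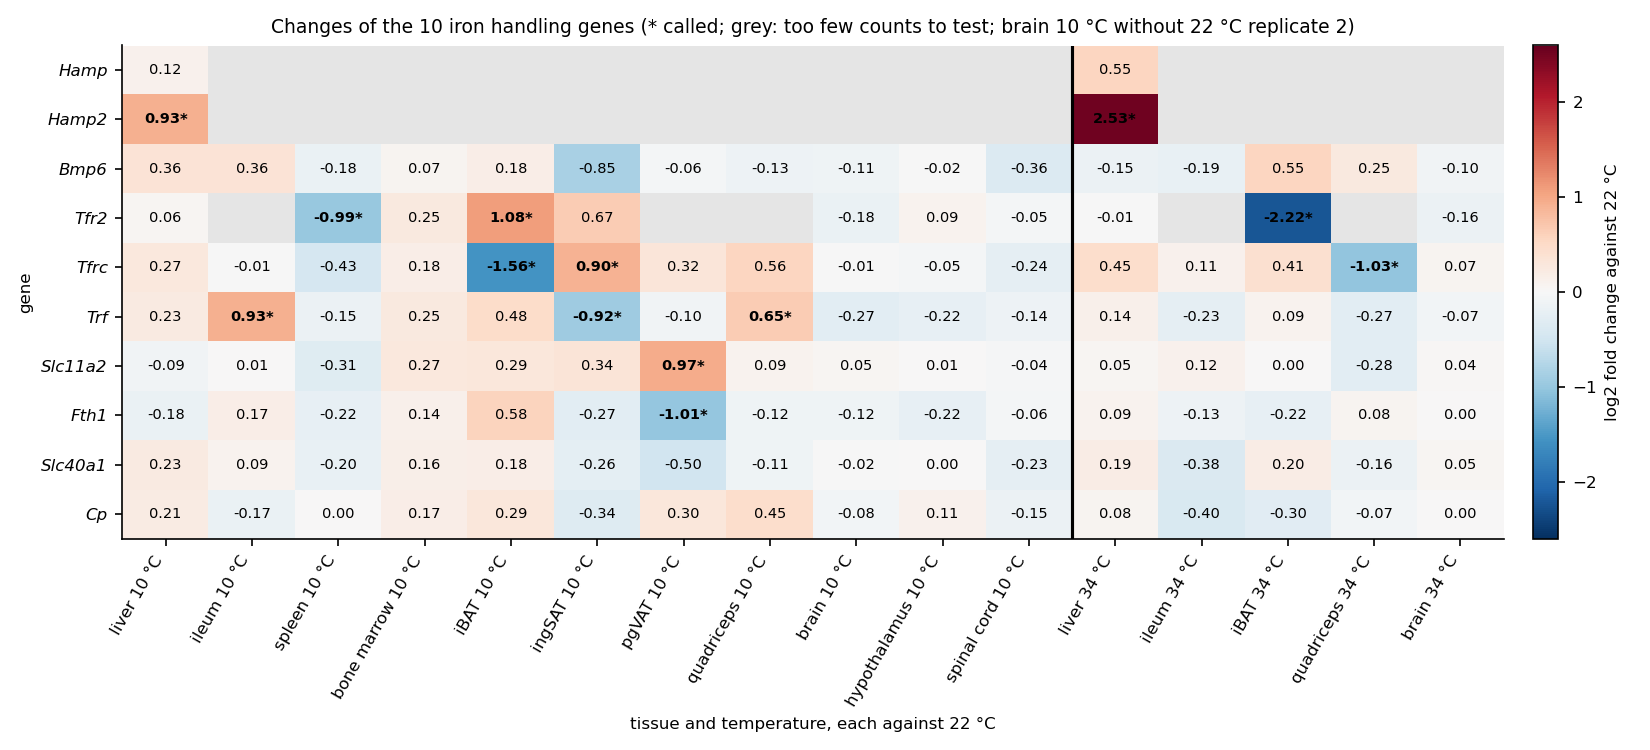
Log2 fold change against 22 °C (colour and number in each cell) for the 10 genes (rows) in the 11 tissues at 10 °C and, right of the line, the 5 tissues at 34 °C (columns). Asterisks mark called genes, grey cells were too low to test, and brain at 10 °C is drawn without 22 °C replicate 2. The pgVAT column is drawn with all libraries, also those with high epididymis genes. Without 10 °C replicates 1 and 3 its log2 fold changes were 0.20 for Slc11a2 and -0.49 for Fth1, which carry asterisks here. The strongest colours are Hamp2 in liver at 34 °C (2.53) and Tfr2 in iBAT at 34 °C (-2.22), and the Tfr2 and Tfrc rows change sign between tissues.

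Brown fat at 10 °C had less messenger of the iron uptake receptor and more of Tfr2. Tfrc was at 318, 414 and 184 CPM at 22 °C and at 104, 94.4 and 111 CPM at 10 °C. Every cold library lay below every control, although the controls themselves spread widely. The log2 fold change of -1.56 had a standard error of 0.26 (adjusted p = 0.00681, edgeR's quasi-likelihood test). Tfr2 was low in iBAT, at 5.62, 9.27 and 6.76 CPM, and was 14.9, 17.8 and 13.4 CPM at 10 °C, again without overlap. Its log2 fold change was 1.08 with a standard error of 0.20 (adjusted p = 0.0114). Both calls held in every refit with 1 library left out and under all 7 other settings. Of all genes tested in iBAT at 10 °C, 13.2% were called, so 2 of 8 members is a small number to read.

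The ferritin genes were higher in the same cold iBAT libraries. Ftl1 was at 164, 147 and 185 CPM at 22 °C and at 298, 306 and 255 CPM at 10 °C, a log2 fold change of 0.79 with a standard error of 0.14 (adjusted p = 0.00822). Fth1 was at 778, 773 and 815 CPM and then at 1310, 899 and 1330 CPM. All cold libraries lay above the controls, yet the log2 fold change of 0.58 stayed just under the 1.5-fold limit and its adjusted p was 0.0675. With RLE scaling, at 0.59, without 10 °C replicate 2, at 0.75, or without 22 °C replicate 3, at 0.60, Fth1 was called. Trf, Slc11a2 and Cp had unadjusted p under 0.05 with log2 fold changes of 0.48, 0.29 and 0.29, also under the limit, and those of Bmp6 and Slc40a1 were 0.18 each. The 5 brown adipocyte genes summed to 7470 to 12600 CPM at 22 °C and 13000 to 15200 at 10 °C, and the 5 skeletal muscle genes, a sign of adjoining muscle, to 5840 to 8940 and 2100 to 4210 CPM. None of the brown adipocyte or muscle genes was at 0, and their part in these results was not tested.

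In iBAT at 34 °C Tfr2 was lower. It was at 9.54, 6.55 and 3.80 CPM at 22 °C and at 0.632, 2.59 and 1.02 CPM at 34 °C. No library of one group reached the other, and the log2 fold change was -2.22 with a standard error of 0.56 (adjusted p = 0.0252). Called genes made up 19.4% of all genes tested there. Bmp6 was at 23.9, 16.7 and 19.6 CPM and then at 26.3, 28.3 and 33.5 CPM, apart but under the fold limit at a log2 fold change of 0.55 (adjusted p = 0.0348), and Ftl1 had a log2 fold change of 0.50 (adjusted p = 0.0431). Tfrc was at 112, 123 and 151 CPM and at 216, 214 and 84.2 CPM. One warm library thus lay below all controls while the others lay above them, and the log2 fold change of 0.41 had a standard error of 0.33. Fth1, at 2470 to 2650 CPM against 1800 to 2540 CPM, was not called. The brown adipocyte sum was 8670 to 11800 CPM at 22 °C and 5350 to 6370 at 34 °C. The muscle sum was 0.643, 3790 and 6.10 CPM in the controls and 3890, 975 and 1100 at 34 °C, and their part was not tested.

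Quadriceps Tfrc lay on opposite sides of its controls at the 2 temperatures. The 6 controls ran from 125 through a median of 168 to 187 CPM, and the 10 °C libraries were at 256, 202 and 249 CPM, all above them. The log2 fold change of 0.56 had a standard error of 0.14 and stayed just under the fold limit (adjusted p = 0.121). With the 3 controls of the cold experiment alone it was 0.52 (unadjusted p = 0.0127, adjusted p = 0.4 in edgeR's quasi-likelihood fit). Scaled with the 34 °C libraries the same controls ran from 122 through 163 to 181 CPM, and the warm libraries were at 59.3, 85.7 and 82.3 CPM, all below them. The log2 fold change of -1.03 had a standard error of 0.16 (unadjusted p = 4.88e-05, adjusted p = 0.191). With the own controls it was -0.97 (unadjusted p = 0.000491, adjusted p = 0.961 in edgeR's quasi-likelihood fit). The call at 34 °C held in each of 3 refits with 1 warm library left out and under all 7 other settings. Both comparisons use the same controls unless the own ones are named.

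Of all genes tested in quadriceps, 3.27% were called at 10 °C (3.8% with own controls) and 1.24% at 34 °C (1.23%). Trf was called at 10 °C, at 45.4 through 73.7 to 88.0 CPM in the controls and 125, 142 and 56.8 CPM in the cold, so the groups overlapped (log2 fold change 0.65, adjusted p = 0.401), and it was not called with the own controls (0.77, unadjusted p = 0.0548 in edgeR). The call was also lost without 10 °C replicate 1 or replicate 2, with log2 fold changes between 0.42 and 0.96 over the refits. The sum of 6 adipocyte genes was 801, 980 and 276 CPM in those cold libraries and 181 to 618 CPM in the controls. Its part in the Trf result was not tested. Slc11a2 at 34 °C was at 31.1, 30 and 31.2 CPM against 33.6 to 40.4 CPM in the controls, a log2 fold change of -0.28 (unadjusted p = 0.0069, adjusted p = 0.756).

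**Figure D3:**
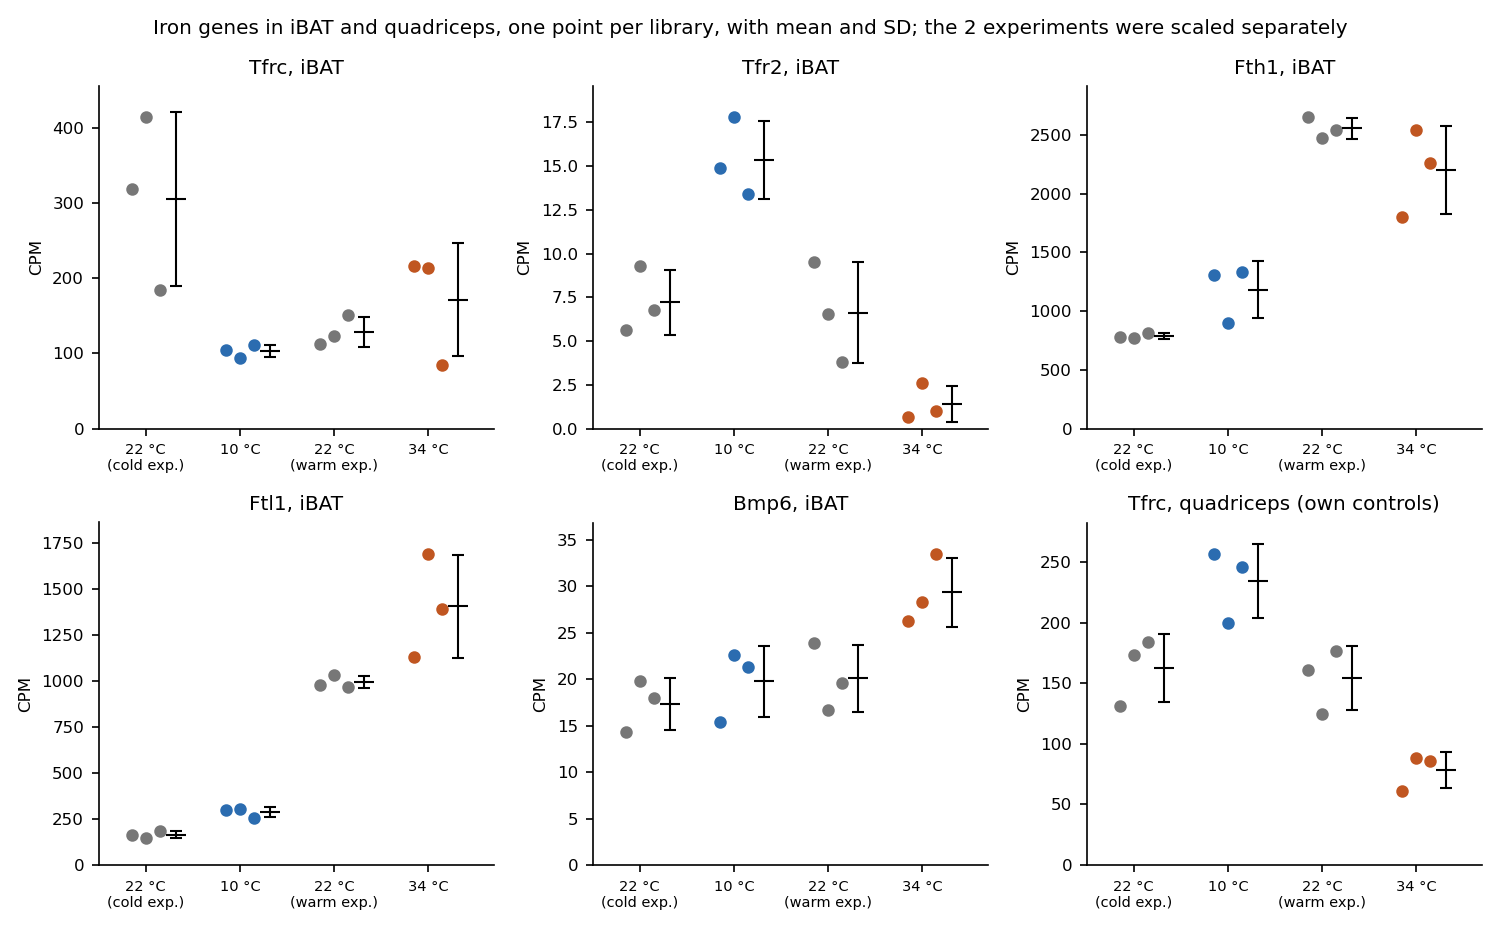
CPM (vertical) by group (horizontal), 1 point per library with the mean and SD as a bar beside it, for Tfrc, Tfr2, Fth1, Ftl1 and Bmp6 in iBAT and Tfrc in quadriceps with each experiment's own controls. The cold and the warm experiment were scaled separately. In iBAT the Tfrc points at 10 °C sit between 94.4 and 111, and in quadriceps Tfrc lies above its controls at 10 °C and below them at 34 °C.

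Subcutaneous fat showed the opposite sign of Tfrc to iBAT. Tfrc in ingSAT was at 52.0, 78.2 and 89.6 CPM at 22 °C and at 132, 154 and 125 CPM at 10 °C, apart, with a log2 fold change of 0.90 and a standard error of 0.21 (adjusted p = 0.0478). The call held in every refit with 1 library left out and under all 7 other settings. Trf, which fat cells express, was at 4460, 4420 and 4180 CPM and then at 3160, 1970 and 1760 CPM. The cold libraries lay below the controls and spread more, and the log2 fold change was -0.92 with a standard error of 0.26 (adjusted p = 0.0779). The Trf call was lost without 10 °C replicate 2 or replicate 3, with log2 fold changes between -1.22 and -0.72 over the refits. Bmp6, at 15.9, 15.2 and 6.08 CPM and then 6.54, 7.19 and 6.86 CPM, just missed the p limit (log2 fold change -0.85, adjusted p = 0.179), and 1 control lay below all cold libraries.

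In ingSAT 16.4% of all genes tested were called. Brown adipocyte genes summed to 74.3 to 123 CPM at 22 °C and 1820 to 2710 at 10 °C, and 9 macrophage genes to 435 to 885 and 342 to 387 CPM. None of either list was at 0, and their part was not tested. In pgVAT 8.17% of all genes were called. Slc11a2 was at 37.3, 33.7 and 35.2 CPM at 22 °C and 76.7, 39.2 and 92.4 CPM at 10 °C (log2 fold change 0.97, adjusted p = 0.586). Fth1 was at 703, 1200 and 1330 CPM and at 476, 733 and 399 CPM (log2 fold change -1.01, adjusted p = 0.586). For both genes the 2 cold libraries farthest from the controls are those with the high epididymis genes. Without these the log2 fold changes were 0.20 and -0.49, neither called, and 8.84% of all genes were. In that fit the 1 cold library left is assumed to vary like the others. Bmp6 had log2 fold changes of -0.06 with and 0.83 without those libraries, and was called in the second fit (adjusted p = 0.42 in edgeR).

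Liver, the source of hepcidin, showed its clearest change at 34 °C, in Hamp2. It was at 37.9, 53.5 and 31.1 CPM at 22 °C and at 133, 384 and 193 CPM at 34 °C. Every warm library was above every control, and the log2 fold change was 2.53 with a standard error of 0.37 (adjusted p = 0.0341, edgeR's quasi-likelihood test). The call held in all 6 refits with 1 library left out, with log2 fold changes of 2 to 2.82, and under all 6 other settings. Hamp was at 547, 510 and 612 CPM and at 757, 584 and 1100 CPM, which overlap, and it stayed under the fold limit at 0.55 ± 0.20 (log2 fold change and standard error, adjusted p = 0.348). Hamp2 thus held 6.47%, 9.49% and 4.84% of the counts of both genes in the controls and 14.9%, 39.6% and 15% at 34 °C. The exact 95% interval of the share in 34 °C replicate 2 was 39.2% to 40.1%, which covers counting error only. Called genes made up 3.39% of those tested in liver at 34 °C.

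Tfr2 and Bmp6, upstream of hepcidin, were not called. In liver at 34 °C Tfr2 was at 507, 458 and 527 CPM against 490, 466 and 529 CPM, a log2 fold change of -0.01 with a standard error of 0.09, and Bmp6 had one of -0.15 with a standard error of 0.22. The 6 hepatocyte genes summed to 102000 to 115000 CPM at 22 °C and 137000 to 140000 CPM at 34 °C, and 7 acute phase genes, which share inflammatory drivers with Hamp, to 7560 to 9250 and 7660 to 8360 CPM. Neither list had a gene at 0, and their part was not tested. Trf, Cp, Slc40a1, Slc11a2 and Fth1 had log2 fold changes between 0.05 and 0.19 there. Tfrc was at 9.90 to 14.3 CPM and 11 to 22 CPM (0.45, adjusted p = 0.536).

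In liver at 10 °C Hamp2 was again the one member called, on few counts. It was at 1.69, 1.20 and 1.12 CPM (28, 20 and 19 counts) at 22 °C and at 2.52, 3.50 and 1.72 CPM (41, 61 and 37 counts) at 10 °C. The groups did not overlap but 1 cold library lay just above the highest control, and the log2 fold change was 0.93 with a standard error of 0.31 (adjusted p = 0.171). The call was lost without 10 °C replicate 2, where the log2 fold change was 0.65. Hamp was at 121, 98.2 and 120 CPM and at 141, 81.9 and 145 CPM, a log2 fold change of 0.12 with a standard error of 0.19. Hamp2 held 0.923% to 1.37% of the counts of both genes at 22 °C and 1.75%, 4.10% and 1.17% at 10 °C. These shares lie far below those in the other experiment's controls, where site, kit and supplier all differ and cannot be told apart. Trf, at 19600 to 21900 against 23600 to 25200 CPM, and Slc40a1, at 143 to 173 against 169 to 191 CPM, both had log2 fold changes of 0.23 and unadjusted p of 0.0399 and 0.0386 (adjusted p = 0.246 and 0.244). Bmp6, from liver endothelium, was at 3.13, 3.6 and 3.54 CPM and at 4.85, 3.96 and 4.41 CPM (0.36, adjusted p = 0.282), and 6 sinusoidal endothelium genes, none at 0, summed to 179 to 294 and 297 to 342 CPM. Neither the Bmp6 groups nor these sums overlapped, and the part of these cells was not tested. Called genes made up 3.2% of those tested.

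**Figure D4:**
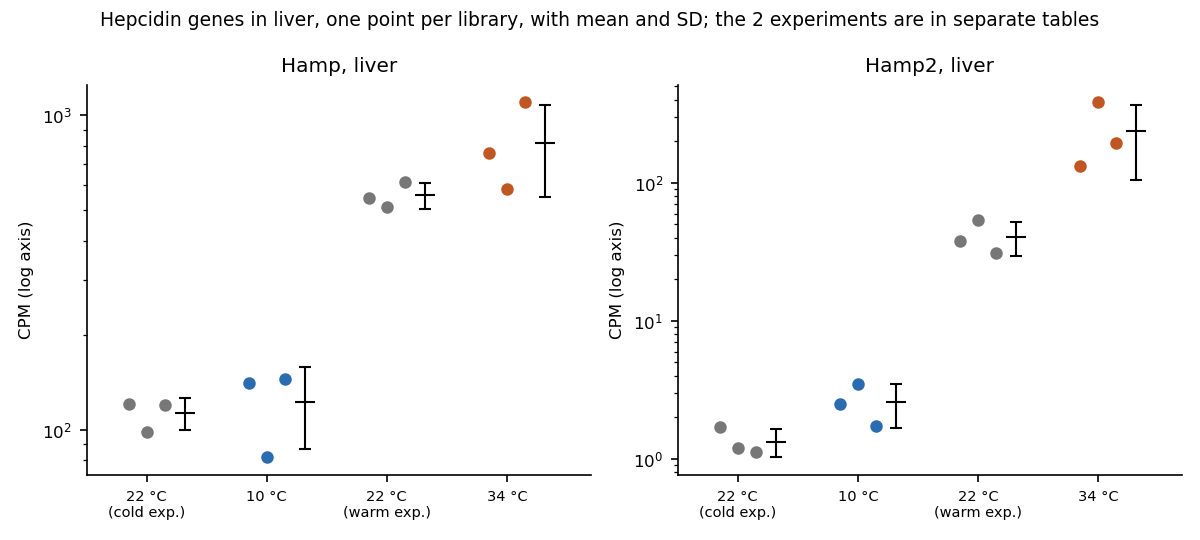
CPM on log axes (vertical) of Hamp and Hamp2 in liver by group (horizontal), 1 point per library with mean and SD as a bar. The cold and the warm experiment are in separate tables, so their levels are not compared. The Hamp2 points at 34 °C sit between 133 and 384, above all controls, while the Hamp points at 34 °C overlap their controls.

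Among the blood-forming tissues, spleen Tfr2 was called lower at 10 °C. It was at 23, 30.9 and 53.2 CPM at 22 °C and at 11.2, 21.2 and 21.7 CPM at 10 °C, apart by little, with a log2 fold change of -0.99 and a standard error of 0.34 (adjusted p = 0.477), and the call was lost without 22 °C replicate 3 or 10 °C replicate 1. Called genes made up 2.71% in spleen. Red cell precursors express Tfr2 and Tfrc, and the sum of 8 erythroid genes was 2740, 4300 and 4690 CPM at 22 °C and 1950, 2920 and 3460 CPM at 10 °C. In both groups the library with the lowest erythroid sum had the lowest Tfr2, and the part of these cells was not tested. Tfrc in spleen was at 497, 748 and 1030 CPM and at 432, 619 and 633 CPM (log2 fold change -0.43, adjusted p = 0.553).

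In bone marrow the changes were small and in the other direction. All 8 members tested had positive log2 fold changes, with a median of 0.17 against 0.01 for all genes, and 3 had an adjusted p under 0.05, all below the fold limit. Slc11a2 ran from 94.3 through a median of 107 to 116 CPM at 22 °C and from 119 through 128 to 133 CPM at 10 °C, apart, with a log2 fold change of 0.27 and a standard error of 0.06 (adjusted p = 0.006). Tfr2 ran from 41.6 through 50.2 to 57.3 and from 54.2 through 58.8 to 64.9 CPM (0.25, adjusted p = 0.0394), and Trf from 161 through 209 to 231 and from 215 through 244 to 273 CPM (0.25, adjusted p = 0.0496), with overlap in both. Tfrc ran from 1130 through 1420 to 1490 and from 1450 through 1550 to 1700 CPM (0.18, adjusted p = 0.0765). The 8 erythroid genes summed to 10200 to 12800 CPM at 22 °C and 13400 to 16600 at 10 °C, without overlap, and their part was not tested. No member was called by edgeR's quasi-likelihood test, its exact test or DESeq2, while 1.26% of all genes were called. By p alone, without the fold limit, 5 members had an unadjusted p under 0.05. The share of all genes without the fold limit is not given, so 1.26% is no background for these 5 or for the 3 above.

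**Figure D5:**
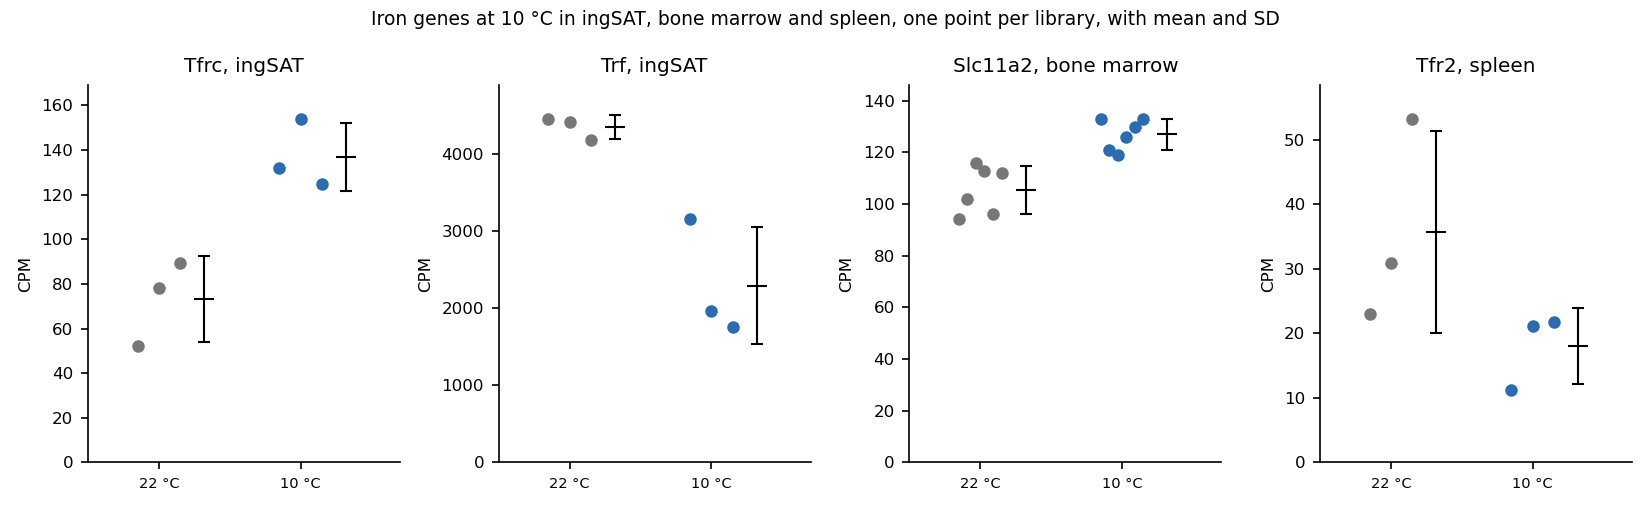
CPM (vertical) at 22 °C and 10 °C (horizontal) for Tfrc and Trf in ingSAT, Slc11a2 in bone marrow and Tfr2 in spleen, 1 point per library with mean and SD as a bar. Tfrc in ingSAT and Slc11a2 in bone marrow lie higher at 10 °C without overlap, and Trf in ingSAT and Tfr2 in spleen lie lower.

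In ileum, the only part of the intestine sampled, neither the importer gene Slc11a2 nor the exporter gene Slc40a1 was called. Iron absorption itself was not measured. The 5 enterocyte genes summed to 8650 to 9610 CPM at 22 °C and 13400 to 15200 CPM at 10 °C, without overlap and with no gene at 0, and their part in the ileum values was not tested. Slc11a2 was at 64.6, 78.7 and 85.3 CPM at 22 °C and at 78.1, 74.0 and 77.9 CPM at 10 °C, and its log2 fold changes were 0.01 and 0.12 at 10 and 34 °C. Those of Slc40a1 were 0.09 and -0.38, with standard errors of 0.18 and 0.32. Fth1 at 10 °C was at 381, 390 and 401 CPM against 344 to 355 CPM, apart but small (0.17, adjusted p = 0.236). Trf was called at 10 °C, with 40.5, 24.8 and 37.7 CPM at 22 °C and 88.9, 75.3 and 31.9 CPM at 10 °C (0.93, adjusted p = 0.257). Its groups overlap, DESeq2 did not call it, and it was lost without 10 °C replicate 1 or 2 or 22 °C replicate 2. The adipocyte sum was 94.6, 39.8 and 101 CPM at 22 °C and 296, 175 and 98.2 CPM at 10 °C. Replicates 1 and 2 at 10 °C had the highest sums and the highest Trf, while among the other libraries both orders differed. The part of the adipocyte sum was not tested. Called genes made up 2.73% in ileum at 10 °C and 2.91% at 34 °C, where none of 7 members was called by edgeR's 2 tests or DESeq2 or had an unadjusted p under 0.05.

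In the nervous system few differences of the members exceeded the spread once brain 22 °C replicate 2 was set aside. With it, Hamp (0, 60.8 and 0 CPM at 22 °C against at most 0.0574 at 10 °C) and Tfr2 (3.41, 283 and 4.11 CPM against 3.21, 3.05 and 3.79 CPM) were called lower (log2 fold changes -8.99 and -4.85, adjusted p = 0.713 for both, 2.73% of all genes called), and the size of the Hamp value depends on the prior count. That library also had 16600 CPM of Trf and 1340 CPM of Cp, against 894 and 1010, and 31.8 and 23.4, in the other two. Without it the log2 fold change of Tfr2 was -0.18 with a standard error of 0.19, Hamp was too low to test, and 0.801% of all genes were called. Trf was then at 948 and 1060 CPM at 22 °C and 895, 865 and 736 CPM at 10 °C (-0.27, unadjusted p = 0.00572, adjusted p = 0.356 in edgeR). In hypothalamus Trf was at 449, 457 and 510 CPM and 386, 379 and 450 CPM (-0.22, adjusted p = 0.759), and Fth1 at 389, 377 and 442 CPM and 369, 361 and 310 CPM (-0.22, adjusted p = 0.763). The 6 oligodendrocyte genes summed to 5250 to 5650 CPM at 22 °C and 4700 to 4710 CPM at 10 °C in hypothalamus. In brain the sums were 7500 and 8080 CPM without 22 °C replicate 2, which had 3020, and 6240 to 6500 CPM at 10 °C. In spinal cord they ran from 29200 through 30800 to 35300 CPM and from 23100 through 28800 to 29600 CPM. The 6 choroid plexus genes summed to 846 and 1270 CPM in brain without 22 °C replicate 2, which had 3560, and to 1090 to 1140 CPM at 10 °C. No oligodendrocyte gene was at 0, and their part in the Trf and Fth1 values was not tested. In spinal cord the log2 fold changes of the 8 members tested were all negative, between -0.36 and -0.04, with a median of -0.14 against 0 for all genes. Called genes made up 0.578% in hypothalamus, 0.271% in spinal cord and 0.193% in brain at 34 °C. No member was called in these 3 by edgeR's 2 tests or DESeq2, and 2, 1 and 0 had an unadjusted p under 0.05. The shares of called genes include the fold limit and are no background for these counts by p alone.

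Whether the change of a member differed between tissues was tested with an interaction of temperature and tissue. Over the 8 tissues of the largest table, 6 of 9 members had an adjusted p under 0.05 at 10 °C, against 15.7% of all genes: Tfrc (0.0033), Fth1 (0.00914), Slc11a2 (0.00943), Tfr2 (0.0121), Cp (0.0222) and Trf (0.0316). Without brain 22 °C replicate 2 the adjusted p was 0.00235 for Tfrc, 0.0063 for Fth1, 0.00846 for Slc11a2 and 0.0243 for Tfr2, while Trf (0.0629) and Cp (0.681) were lost, against 15.9% of all genes. With pgVAT 10 °C replicates 1 and 3 left out as well, 4 of 9 passed, against 24.6% of all genes: Tfrc (0.000522), Trf (0.00779), Tfr2 (0.0194) and Fth1 (0.0252), while Slc11a2 (0.0592) and Cp (0.407) did not. The Tfrc changes ran from -1.56 in iBAT to 0.90 in ingSAT. Without brain 22 °C replicate 2 those of Tfr2 ran from -0.99 in spleen to 1.08 in iBAT, and with it brain was lowest at -4.85. Over the 5 tissues at 34 °C, a test added after the data were seen, Tfrc (0.0152), Hamp (0.0172) and Tfr2 (0.019) passed, against 11.8% of all genes. Hamp lies near 0 outside liver, so its test compares liver with tissues that hardly express it.

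Another 41 genes of iron biology were examined as a list. At 10 °C, 52 of 406 gene tests were called, 11 higher and 41 lower (12.8%, against 4.95% of all gene tests), and at 34 °C 5 of 163, 3 higher and 2 lower (3.07%, against 5.34%). By group the calls at 10 °C were 0 higher and 11 lower of 68 tests for uptake, reduction and oxidation, 1 higher and 14 lower of 121 for hepcidin control, 4 higher and 10 lower of 68 for haem and haemoglobin handling, 1 higher and 4 lower of 77 for storage and cellular iron control, 2 higher and 0 lower of 55 for mitochondrial iron, and 3 higher and 2 lower of 17 for iron withholding. Without the brain and pgVAT libraries that stood apart, 47 of 403 were called, 10 higher and 37 lower. By group these were 0 higher and 10 lower of 67, 1 and 12 of 121, 4 and 8 of 66, 1 and 3 of 77, 2 and 0 of 55, and 2 and 4 of 17, in the same order. The share of all genes over these libraries is not given, and 4.95% is no background for them.

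The fats held most of these calls. In ingSAT 18 of 38 tested were called (47.4%, against 16.4% of all genes), 2 higher and 16 lower, with a median log2 fold change of -0.54 against -0.01 for all genes. Hp, the haemoglobin scavenger haptoglobin, was at 2440, 1450 and 1890 CPM at 22 °C and 725, 496 and 566 CPM at 10 °C, a log2 fold change of -1.69 (adjusted p = 0.0145). Heph, a ferroxidase like ceruloplasmin, was at 187, 204 and 172 CPM and 117, 71.6 and 84.5 CPM (-1.04, adjusted p = 0.027), and Acvr1, a BMP receptor, at 41.6, 34.9 and 24.8 CPM and 15.6, 14.1 and 17.3 CPM (-1.11, adjusted p = 0.0276). None of these groups overlap, which was a condition for naming these genes.

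In iBAT at 10 °C 13 of 37 were called (35.1%, against 13.2% of all genes), 2 higher and 11 lower. Hpx, the haem scavenger hemopexin, was at 3.23, 3.57 and 4.76 CPM and 0.347, 0.957 and 0.574 CPM (-2.67, adjusted p = 0.00275). Hpx is a gene of hepatocytes, and in these libraries the 6 hepatocyte genes summed to 190 to 408 CPM at 22 °C and 113 to 158 CPM at 10 °C, and the 3 liver markers to 42.1 to 71.6 and 0.182 to 0.783 CPM, with none at 0. Their part was not tested. Hp was at 719, 683 and 675 CPM and 255, 262 and 255 CPM (-1.43, adjusted p = 0.000401). Smad6, an inhibitor induced by BMP signals, was at 35.8, 45.4 and 49.1 CPM and 10.6, 17.1 and 17.3 CPM (-1.54, adjusted p = 0.00253). Ftl1 is given above. Of the 12 genes of the hepcidin control group tested there, 5 were called, all lower, and they are Hjv, Tmprss6, Smad6, Id1 and Atoh8, named after their values were seen. The 3 liver markers and the muscle sum given above were also lower at 10 °C, and their part in these 5 calls was not tested. Hamp was at or below 0.167 CPM in these libraries. At 34 °C iBAT held all 5 calls of the list, 5 of 33 tested there (15.2%, against 19.4% of all genes). Heph was at 6.06, 9.06 and 8.15 CPM at 22 °C and 29.1, 26.9 and 27.7 CPM at 34 °C (1.84, adjusted p = 0.000958), and Steap4, a metalloreductase, at 139, 99.0 and 113 CPM and 232, 197 and 192 CPM (0.83, adjusted p = 0.00731). Ncoa4, the receptor that takes ferritin to the lysosome, was at 86.7, 74.8 and 85.6 CPM and 49.5, 45.7 and 55.5 CPM (-0.71, adjusted p = 0.00395), and Aco1, iron regulatory protein 1, at 420, 422 and 460 CPM and 247, 290 and 291 CPM (-0.65, adjusted p = 0.00553). The fifth, Slc39a8, named after its values were seen, had a log2 fold change of 0.68 (adjusted p = 0.0582).

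In spleen at 10 °C 6 of 38 were called (15.8%, against 2.71% of all genes), all lower. Ltf, lactoferrin, was at 51.9, 62.9 and 87.5 CPM and 6.99, 13.5 and 10.7 CPM (-2.70, adjusted p = 0.0214). Lcn2, which binds bacterial siderophores, was at 16.8, 23.7 and 31.5 CPM and 3.14, 4.92 and 3.25 CPM (-2.65, adjusted p = 0.0214), and Hp was at 29.9, 43.3 and 35.5 CPM and 15.3, 10.6 and 11.5 CPM (-1.53, adjusted p = 0.0305). Ltf, Lcn2 and Hp are also genes of maturing neutrophils, for which no marker list was examined.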

How the data were processed

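Gene counts of 106 libraries in 4 tables were used. Per the study and the labels, the authors aligned the reads to mm10 with STAR and counted reads per gene with HTSeq to make the deposited raw counts (the labels' processing notes name STAR 2.5.3a, Picard 1.141 and HTSeq 0.6p1). The protocol text of every label names 34 °C, so temperatures were taken from titles and treatment labels. In the table of 8 tissues, 99.7% of the 21647 Ensembl identifiers matched a symbol. A separate fit for every comparison was made in edgeR 4.0.16 (R 4.3.3): TMM scaling, average log2 CPM above 0, two-sided quasi-likelihood F-test, Benjamini-Hochberg adjustment over all genes. CPM in the text use these factors, and levels at 22 °C use factors over a whole table, so they differ. Standard errors were derived from the log2 fold change and F. In simulated counts for liver at 10 °C with 200 changed genes, 96.94% of changes of 1 on the log2 scale were called, and 1.02% of unchanged genes. The members and lists were chosen with earlier results of these data known. Genes named from the longer list were called, did not overlap between groups and passed 0.05 after adjustment, at most 3 per direction and comparison by size, and all 10 members are named. One result that this rule names is not reported here. Where labels name no separate animals, p-values measure the spread between libraries only. Reads carry no molecular identifiers. Samples of ingSAT and pgVAT at 34 °C were not analysed here. The alternatives used DESeq2 1.42.0, the exact test of edgeR, a limit on the adjusted p instead, other scaling and filters, the replicate block, own quadriceps controls, leaving out libraries and, added after the data were seen, leaving out the libraries that stood apart.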

Additional observations from a re-analysis of the deposited data

Results flagged for a closer look

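Within groups of 4 to 10 libraries, 7 of 43 groups of member values held 1 library far from the others. The measure was Dixon's ratio of its gap to the group's range, which normally distributed values pass in about 1 in 20 groups. Groups with few counts in every library were left out. Hamp in spinal cord and Hamp2 in quadriceps therefore entered only through the library that was flagged, and that rate does not apply to them. In spinal cord, Tfrc in 22 °C replicate 3 was at 278 CPM against 179 to 188 in the others (ratio 0.903), Fth1 in 10 °C replicate 4 at 4730 against 5520 to 5680 (0.838) and Cp in 10 °C replicate 5 at 54.7 against 28.5 to 32.7 (0.837). Hamp in 22 °C replicate 1 was at 1.04 CPM against at most 0.04 (0.962) and in 10 °C replicate 3 at 0.867 against at most 0.0456 (0.947). In those libraries the hepatocyte genes summed to 338 and 105 CPM. Tfrc in bone marrow 22 °C replicate 1 was at 1140 CPM against 1370 to 1460 (0.695), and Hamp2 in quadriceps 22 °C replicate 1 at 0.253 against at most 0.0776 (0.693).

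The change at 10 °C differed between the 8 tissues of the largest table for Tfrc (adjusted p = 0.0033 by the interaction in edgeR's quasi-likelihood test), Fth1 (0.00914), Slc11a2 (0.00943), Tfr2 (0.0121), Cp (0.0222) and Trf (0.0316). Cp (0.681) and Trf (0.0629) did not pass without brain 22 °C replicate 2. Without pgVAT 10 °C replicates 1 and 3 as well, Trf passed (0.00779) and Slc11a2 (0.0592) and Cp (0.407) did not. In a test added after the data were seen, the change at 34 °C differed between 5 tissues for Tfrc (0.0152), Hamp (0.0172) and Tfr2 (0.019).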

How the results depend on the processing

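The 12 member calls at 10 °C became 6 (5 higher, 1 lower) with an adjusted p under 0.05 and no fold limit, and ranged from 9 to 16 under the other settings. The 52 calls of the longer list became 31 with the adjusted p. Its 5 calls at 34 °C became 11 with the adjusted p, 8 with the exact test, 8 with DESeq2, 10 with library size only and 11 without a filter. With single libraries left out there were 10 to 15 member calls at 10 °C, 3 to 5 at 34 °C, 46 to 60 list calls at 10 °C, 5 to 7 at 34 °C, 3 to 8 members with an interaction at 10 °C, 2 to 3 at 34 °C, and 12 to 25 differing neighbours. The 25 came without brain 22 °C replicate 2. Shares of all genes are not given beside the counts of this section, which only show how they move with the setting. Deviations of same-numbered libraries from their group means correlated between -0.69 and 0.47, in none of 10 comparisons above 0.1 throughout. In groups this small the deviations depend on each other, so this check cannot exclude that the numbers pair the libraries. With the replicate block there were 9 member calls, 48 list calls and 3 members with an interaction instead of 6. No paired analysis was possible at 34 °C because the labels share no replicate numbers there. Bmp6 turned to 0.83 in pgVAT without the libraries that stood apart and to 0.67 in hypothalamus without 22 °C replicate 2, from -0.06 and -0.02 (range in hypothalamus with single libraries left out -0.37 to 0.67), and the cause was not tested. Of 1532 refits of uncalled values 98 had the other sign. The pgVAT 22 °C replicate 3 has the fewest counts and is the least precise.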
